A study of Bos indicus x Bos taurus with 78 samples.

Results

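The miR-2284 and miR-2285 rows of a bovine microRNA count table were described in loin muscle of steers. Members were taken by name, as every row named miR-2284 or miR-2285 with any letter suffix and arm, and 148 of the 1030 rows matched (14.4%). Of these, 31 were miR-2284 rows and 117 were miR-2285 rows. MicroRNAs are named here without the species prefix.

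The miR-2284 and miR-2285 microRNAs form a large family known from cattle and other ruminants, with many closely related gene copies. A microRNA is a short RNA that guides an Argonaute protein to matching messenger RNAs, which are then translated less or degraded. Little is established about the targets of single members in muscle, so no role is attached to single members below.

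Small RNA was sequenced from Longissimus lumborum biopsies of 78 male Bos indicus x Bos taurus steers, 1 library per steer. The labels called 53 steers normal and 25 dark-cutting, a carcass defect in which the meat stays dark, and gave each dark-cutting steer a degree. Degree 1/4 had 8 steers, 1/3 had 9, 1/2 had 3, 2/3 had 4 and 3/4 had 1, which has no replicate. The labels name no treatment, age or batch, and the question was which microRNAs go with the phenotype or its degree.

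Libraries held 1427817 to 4535675 counts (median 3209320). The muscle microRNA miR-1 held 84.1% of all counts, and the muscle microRNAs miR-133a, miR-206 and miR-499 held 1.93%, 0.328% and 0.540%. The muscle microRNAs miR-133b and miR-208b held 0.0271% and 0.00767%. Markers of other cell types were present too. The smooth muscle markers miR-143 and miR-145 held 2.49% and 0.0233%. The endothelial markers miR-126-3p and miR-126-5p held 0.482% and 0.0566%. The fibroblast markers miR-199a-3p and miR-214 held 0.0537% and 0.00189%. The red blood cell markers miR-451, miR-144 and miR-486 held 0.0170%, 0.000819% and 0.0559%. The white blood cell markers miR-142-5p, miR-223 and miR-150 held 0.00468%, 0.000763% and 0.00168%. Markers of the same cell type differed widely, so these shares are not read as proportions of cells. The liver marker miR-122 had 18 counts in all libraries together and the epithelial marker miR-205 had 0. Levels below are counts scaled to a library of fixed size (CPM, counts per 1e6) scaled by TMM, a normalization that sets libraries level on the bulk of their rows, unless they are called a share of the library. At the median library 1 count was worth 0.312 CPM. Biopsies hold several cell types, and fewer cells of a type cannot be told apart from less RNA per cell.

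Most of the family was present at very low counts. At least 1 count was found for 137 of the 148 rows (92.6%), against 604 of the other 882 rows (68.5%). At least 10 counts over all libraries were found for 101 rows (68.2%), against 441 of the others (50%). The remaining 36 detected rows had 1 to 9 counts, and 10 of them had a single count. The family made up 18.5% of all detected rows while holding few counts in each. The median total of a detected family row was 36 counts, against 149.5 for the other detected rows.

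Few members were found in every steer. Counts in each of the 78 steers were found for 12 family rows (8.11%) and for 220 of the others (24.9%). Counts in at least 39 steers were found for 51 family rows. A single library showed between 38 and 72 family rows, with a median of 56.5. That number had a median of 56 in normal steers, 60.5 at degree 1/4, 54 at 1/3, 64 at 1/2 and 52 at 2/3, and the steer of degree 3/4 had 67. All of these group medians lay inside the range of the normal steers.

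No count was found for 11 members: miR-2284h-3p, miR-2284i, miR-2284t-3p, miR-2285a, miR-2285bk, miR-2285bx, miR-2285cg, miR-2285cr, miR-2285db, miR-2285dm and miR-2285z. A count of 0 over all libraries allows a level of up to 0.0119 CPM for each, taken as 3 counts of the summed library totals. This limit covers counting error only.

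By subfamily, counts were found for 28 of 31 miR-2284 rows and for 109 of 117 miR-2285 rows. The miR-2284 rows held 34300 counts and the miR-2285 rows 32043, so the smaller subfamily held slightly more. A single member, miR-2284x, accounted for that balance with 40.6% of the family's counts.

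**Figure D1:**
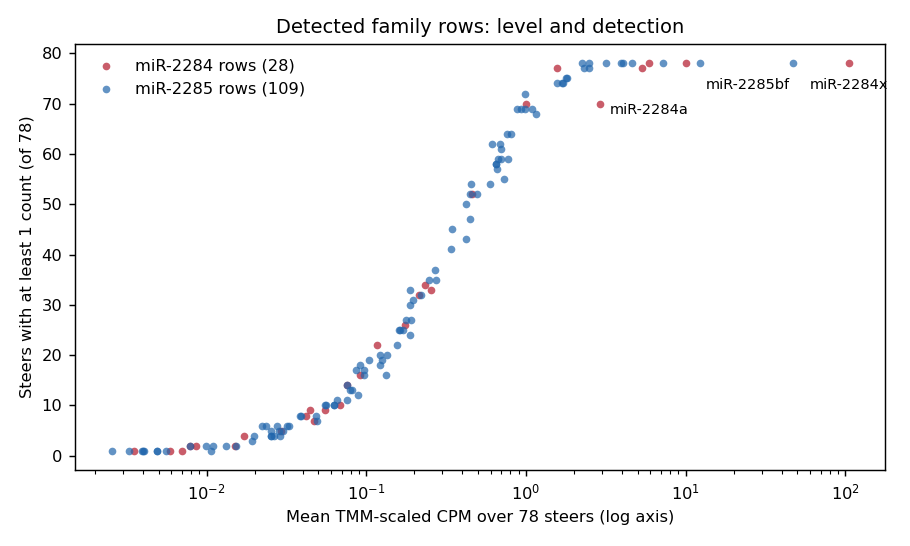
Mean TMM-scaled CPM over 78 steers (log axis) against the number of steers with at least 1 count, 1 point per detected row, coloured by subfamily. The points climb from rows seen in 1 steer to the 12 rows seen in all 78, and miR-2284x is the only row above 100 CPM.

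The whole family held 66343 counts, or 0.0263% of all counts. As a share of the library it came to 261 ± 54.8 CPM (SD, n = 78), between 179 and 421. That share was 259 ± 57.96 in the 53 normal steers and 264 ± 48.5 in the 25 dark-cutting steers, a gap far smaller than either SD. By degree it was 266 ± 59.03 at 1/4 (n = 8), 264 ± 53.4 at 1/3 (n = 9), 285 ± 40.02 at 1/2 (n = 3) and 237 ± 11.2 at 2/3 (n = 4), and 301 in the single steer of degree 3/4. The degrees differed from the normal steers by less than the SD of the normal group.

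Because miR-1 fills most of each library, the share was also taken of the counts that are not miR-1. On that scale the family held 1646 ± 199.7 CPM in normal steers (SD, n = 53) and 1630 ± 179 in dark-cutting steers (SD, n = 25). Counts of miR-1 outnumbered those of the whole family 3198 to 1 and those of miR-2284x 7871 to 1. No test was made of these summed values.

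A few members carried most of the signal. As a share of the library, the mean reached 1 CPM in 26 rows, 10 CPM in 4 rows and 100 CPM in 1 row. Ranks are by that mean share. The most abundant member, miR-2284x, ranked 80 of all rows at 104.8 ± 12.6 CPM (SD, n = 78). The next, miR-2285bf, ranked 111 at 47.04 ± 15.8 CPM. With miR-2284x it made up 59.03% of the family's counts, and the 12 rows with the most counts made up 82.0%.

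Below them, miR-2285f averaged 12.4 ± 5.03 CPM and miR-2284y 10.02 ± 3.14 CPM (SD, n = 78), at ranks 156 and 165. The order of these neighbours was not fixed between steers, since their ranges overlapped widely. The others of the 12 highest were miR-2285o at 7.27 ± 2.65, miR-2284z at 5.89 ± 2.40, miR-2284ab at 5.30 ± 1.74, miR-2285t at 4.59 ± 2.48, miR-2285av at 4.05 ± 1.49, miR-2285b at 3.95 ± 2.17, miR-2285ba at 3.17 ± 2.33 and miR-2284a at 2.93 ± 2.87 CPM. From miR-2285o down, each member differed from the next by less than 1 SD over steers.

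Identical rows touched the family only at its lowest counts. Sets of rows with the same count in all 78 libraries numbered 7 among those holding a family row with a count, and they held 8 family rows. Each of these rows had 1 or 2 counts, all in a single steer. Only miR-2285ah-5p and miR-2285w formed a set with each other, together with miR-2460. The others matched rows outside the family: miR-2285cb matched miR-12018, miR-2285dj matched miR-1814a, miR-2284q matched miR-2395, miR-2285aq matched miR-2289, miR-2285bv matched miR-34b and miR-2285df matched miR-2451. No row of the family with 10 or more counts was identical to another row. Counting each set once left the share at 261 CPM.

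One pair of more abundant rows came close to being alike. The counts of miR-2285bn and miR-2285ce were equal in 19 of 78 steers, within 1 count in 44, and at most 6 apart. Their levels averaged 2.48 and 2.30 CPM. Pearson's r of their log2 levels was 0.80 and Spearman's rho 0.88 (n = 78), which is a description, since the pair was picked as the highest r among members. The sources used here do not give how reads that match more than 1 member were counted.

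Arms were labelled for few members, and most rows carry none. Both arms were listed for miR-2284h and miR-2284t. The 5p arm of miR-2284h had 43 counts in 26 steers and its 3p arm had 0, and miR-2284t had 1 and 0. Among members with 1 labelled arm, miR-2285aj-5p had 177 counts in 58 steers, miR-2285dl-3p 113 in 52, miR-2285ai-5p 74 in 35 and miR-2285am-5p 31 in 19. The rest, miR-2285ag-3p, miR-2285ah-5p, miR-2285ak-5p and miR-2285al-5p, had 10 counts or fewer.

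Members differed widely in how much they varied between normal steers. The variation left after subtracting counting error, as a coefficient of variation (CV), ran from 0.125 to 0.916 over the 15 members that passed the low-count filter, with a median of 0.361. In the 155 other tested rows of the same abundance range the CV was 0.108 to 1.53 (median 0.304). The steadiest member was miR-2284x at 0.125, and 153 of the 155 other rows varied more. Its mean level is the upper end of that abundance range, so it was not compared with any more abundant row. The most variable were miR-2284a at 0.916, miR-2285ba at 0.676, miR-2285t at 0.480, miR-2285x at 0.473 and miR-2285b at 0.428. Only 2 of the 155 other rows varied more than miR-2284a. By the SD of log2 (CPM + 0.5) over all 78 steers, which keeps the counting error, the 5 most variable tested members were miR-2284a at 1.44, miR-2285bg and miR-2285ba at 0.88, miR-2285cm at 0.81 and miR-2285x at 0.76.

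The levels of miR-2284a were spread widely, and the steers were divided at 1.8 CPM to describe them, a level chosen after the values were seen. In 40 steers it was at 1.54 CPM or less, and in 38 steers at 2.12 CPM or more, with a maximum of 9.34 CPM. The step between those levels was 0.36 on the scale of log2 (CPM + 0.5), smaller than the largest step, 0.51, from 0 counts to the lowest level above 0, so the ranges are not shown to be separate. Raw counts were 0 to 4 counts in 40 steers, 5 to 10 in 7 and 11 to 36 in 31. Both ranges held steers of both phenotypes. The high range held 27 of 53 normal steers (50.9%) and 11 of 25 dark-cutting steers (44%), which were 3 of 8 at degree 1/4, 5 of 9 at 1/3, 1 of 3 at 1/2, 2 of 4 at 2/3 and 0 of 1 at 3/4. No test was made on these groups. By the animal numbers in the labels, 14 of the 26 steers numbered below 600 and 24 of the other 52 were in the high range.

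Co-variation with other members was described within the ranges of miR-2284a. Against miR-2284y, the log2 level of miR-2284a gave r = 0.79 and rho = 0.77 over the 38 steers of the high range, and r = 0.35 and rho = 0.35 over the 40 of the low range. Without the 2 steers farthest from the median these r were 0.74 and 0.44. Against miR-2285bf, r was -0.19 in the high range and -0.14 in the low range. In the high range it was 0.00037 in the 27 normal and -0.68 in the 11 dark-cutting steers, and that difference was not tested. Members were thus alike in different degrees, and reads shared by near-identical members were not tested as a part of it. No p is given, since these pairs were picked after their values were seen.

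**Figure D2:**
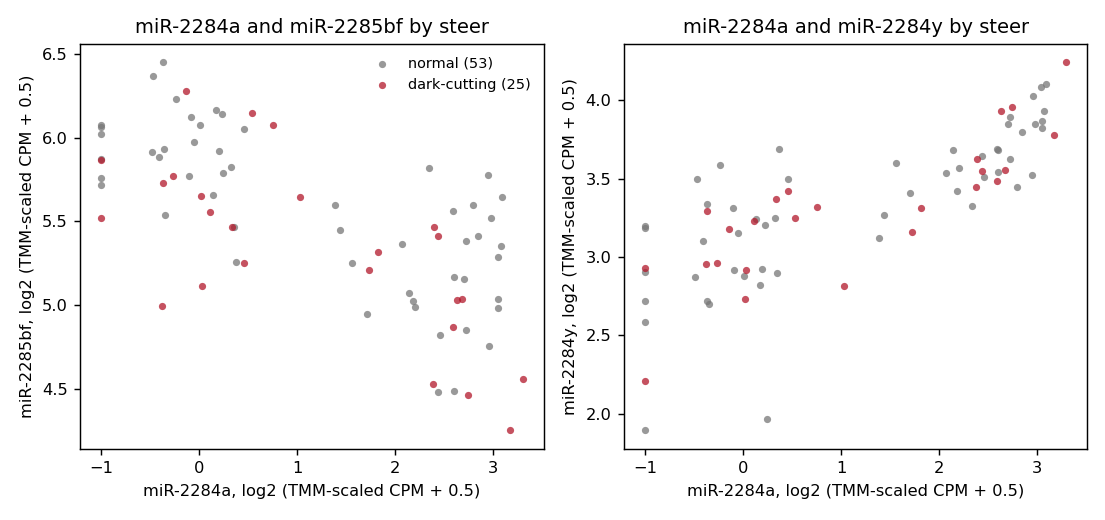
Log2 (TMM-scaled CPM + 0.5) of miR-2285bf and of miR-2284y against that of miR-2284a, 1 point per steer, grey for the 53 normal and red for the 25 dark-cutting steers. Normal and dark-cutting steers lie at both low and high levels of miR-2284a, and miR-2284y climbs with miR-2284a in the 38 steers above 1.8 CPM (r = 0.79).

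Across the 17 other members tested, most pairs were only weakly related. Of the 136 pairs, 97 had an r above 0, with a median of 0.12, and 6 exceeded 0.5. The lowest was miR-2285bf with miR-2284y, at r = -0.52 and rho = -0.59 (n = 78). That r was -0.55 in normal and -0.55 in dark-cutting steers, and -0.57 and -0.53 in the lower and higher animal numbers. In contrast, miR-2285bf and miR-2285f varied in the same direction, at r = 0.57 and rho = 0.56, with 0.48 in normal and 0.66 in dark-cutting steers. Leaving out the 2 steers farthest from the median of miR-2285bf gave r = -0.50 for miR-2284y and 0.55 for miR-2285f.

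No member passed the test between dark-cutting and normal steers. Of the 252 rows that passed the low-count filter 15 were members, and 0 of the 15 had an adjusted p under 0.05 (edgeR's quasi-likelihood test with Benjamini-Hochberg adjustment over all 252), as did 0% of all rows. At an unadjusted p under 0.05 there was 1 member of 15, against 9.13% of all rows. That number was 0 of 15 with total-count scaling, beside 37 of all 252 rows, and 3 of 15 with limma, beside 28 of 252. The log2 fold change was below 0 in 11 of the 15, with a median of -0.08, beside -0.01 over all rows tested, of which 53.97% were below 0. With libraries scaled by total count alone, which moved the median of all rows up by 0.11 on the log2 scale, 5 of the 15 were below 0.

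The member with an unadjusted p under 0.05 was miR-2285o. Its level ran from 2.16 to 14.5 CPM in normal steers, with a median of 7.17, and from 3.07 to 9.79 in dark-cutting steers, with a median of 6.01. All dark-cutting values lay inside the normal range, and 7 of 25 were above the normal median. The log2 fold change was -0.29 ± 0.12 (SE), with an unadjusted p of 0.0230 and an adjusted p of 0.416 from edgeR's quasi-likelihood test.

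The steadiest member differed little between phenotypes. The level of miR-2284x was 68.6 to 157 CPM in normal steers, median 104, and 91.3 to 122 in dark-cutting steers, with a median of 105. Its log2 fold change was 0.02 ± 0.05 (SE), with a 95% interval from -0.07 to 0.12. That interval was the narrowest of the 15.

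The second most abundant member, miR-2285bf, ran from 21.8 to 87.0 CPM in normal steers, with a median of 47.97, and from 18.5 to 77.1 in dark-cutting steers, with a median of 42.1. Its log2 fold change was -0.22 ± 0.12 (SE; 95% interval -0.45 to 0.01). The values of miR-2285f ran from 4.35 to 31.5 CPM in normal steers, median 12.6, and from 3.79 to 22.4 in dark-cutting steers, median 9.75. Its log2 fold change was -0.26 ± 0.14 (SE; 95% interval -0.53 to 0.01). In both members the ranges of the groups overlapped, with the lowest value in a dark-cutting steer and the highest in a normal steer.

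Other tested members spread on both sides of 0. The lowest log2 fold change was that of miR-2285ba, at -0.42 ± 0.24, and the highest those of miR-2285x at 0.16 ± 0.20, miR-2284z at 0.05 ± 0.14 and miR-2284ab at 0.04 ± 0.12 (SE). In miR-2284y it was -0.04 ± 0.11, in miR-2285av -0.04 ± 0.13, in miR-2285b -0.07 ± 0.18, in miR-2284a -0.08 ± 0.37, in miR-2285bn -0.08 ± 0.17, in miR-2285t -0.09 ± 0.18 and in miR-2285u -0.14 ± 0.18. The 95% interval lay within a 2-fold change either way in 15 of 15 members and within a 1.5-fold change in 13. For the other 237 rows these numbers were 234 and 214. The median SE was 0.14 on the log2 scale for members and 0.10 for the others.

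**Figure D3:**
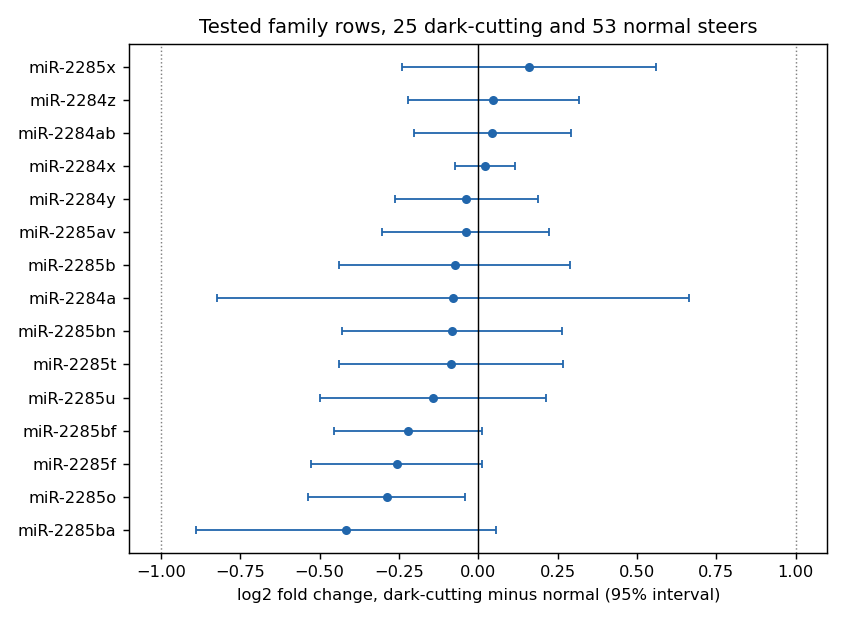
Log2 fold change of dark-cutting minus normal steers with its 95% interval for the 15 tested members, with a line at 0. The interval of miR-2285o alone leaves out 0, before adjustment, and miR-2284x has the narrowest.

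The degrees were compared with the 53 normal steers in one fit of 272 rows, of which 18 were members. The comparisons share those normal steers. At an adjusted p under 0.05 there were 0 of 18 members at each degree (edgeR's quasi-likelihood test, Benjamini-Hochberg), against 0% of all rows at 1/4, 1/3 and 1/2 and 0.368% at 2/3. At an unadjusted p under 0.05 there were 0 of 18 members at 1/4, against 1.1% of all rows, 1 at 1/3, against 9.19%, 1 at 1/2, against 4.78%, and 1 at 2/3, against 2.57%. A different member was the one at each degree. A joint test of degrees 1/4, 1/3, 1/2 and 2/3 against normal gave 0 of 18 members adjusted, against 0% of all rows. Unadjusted it gave 0 members, against 2.21% of all rows. The single steer of degree 3/4 was not part of the joint test.

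At degree 1/3 the member was miR-2285f, with 3.79 to 16.2 CPM and a median of 8.89 over 9 steers, against 4.35 to 31.5 and a median of 12.6 in normal steers. Of the 9 steers 1 lay above the normal median, and 8 lay below it. The log2 fold change was -0.58 ± 0.21 (SE; the upper end of the 95% interval was -0.16), with an unadjusted p of 0.00759 and an adjusted p of 0.409 from edgeR's quasi-likelihood test. At the other degrees it was -0.04 ± 0.21 at 1/4, -0.06 ± 0.33 at 1/2 and -0.31 ± 0.30 at 2/3.

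At degree 1/2 the member was miR-2285ba, at 0.379, 1.343 and 1.28 CPM, or 2, 5 and 5 counts. Normal steers had 0.436 to 11.9 CPM with a median of 2.83, so 1 of the 3 steers was below the whole normal range and the other 2 were in its lower part. The lowest count among normal steers was 1. The gap between 0.379 and 0.436 CPM was below the 0.312 CPM that 1 count was worth at the median library. The log2 fold change was -1.76 ± 0.68 (SE), with an unadjusted p of 0.0118 and an adjusted p of 0.942 from edgeR's quasi-likelihood test. At 2/3 the steers had 2.82, 3.07, 1.36 and 7.30 CPM and a log2 fold change of 0.01 ± 0.49 (SE), and the steer of degree 3/4 had 4.9999 CPM. One steer of degree 2/3, with 4 counts, was thus about as low as 2 of those of degree 1/2, and the difference between these degrees was not tested.

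At degree 2/3 the member was miR-2285av, at 3.07, 1.153, 3.05 and 2.65 CPM. All 4 steers were below the normal median of 3.96 and inside the normal range of 1.10 to 7.29. The log2 fold change was -0.78 ± 0.31 (SE), with an unadjusted p of 0.0149 and an adjusted p of 0.988 from edgeR's quasi-likelihood test. The steer of degree 3/4 had 4.78 CPM, above that median.

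**Figure D4:**
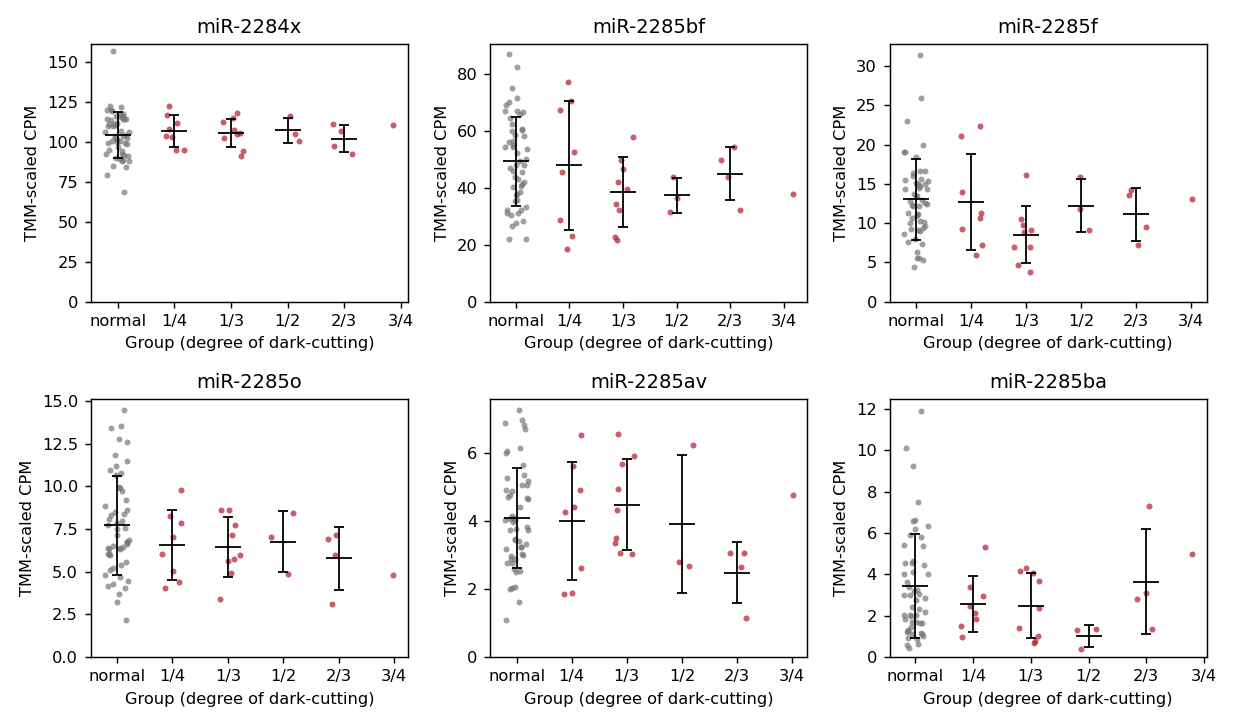
TMM-scaled CPM of 6 members by group, 1 point per steer, with the mean and SD as bars where a group has more than 1 steer. Each degree overlaps the range of the normal steers in each member, and miR-2284x stays near 105 CPM throughout. The 3 steers of degree 1/2 are at 1.343 CPM of miR-2285ba or less. The 4 steers of degree 2/3 are above them, the lowest of these close by at 1.36.

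Directions by degree were mixed. Below 0 were 11 of 18 members at 1/4 (median log2 fold change -0.04, against -0.01 over all rows tested), 13 at 1/3 (-0.10 against -0.01), 10 at 1/2 (-0.03 against -0.00) and 13 at 2/3 (-0.08 against -0.07). Of all rows tested, 51.8% were below 0 at 1/4, 53.3% at 1/3, 50.4% at 1/2 and 66.9% at 2/3. With total-count scaling the members below 0 were 9, 9, 7 and 9 of 18. The median of all rows then moved up by 0.14 at 1/3 and by 0.18 at 1/2. With the size factors of DESeq2 the members below 0 were 11, 13, 11 and 9 of 18. The plot by degree gives every member's value.

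**Figure D5:**
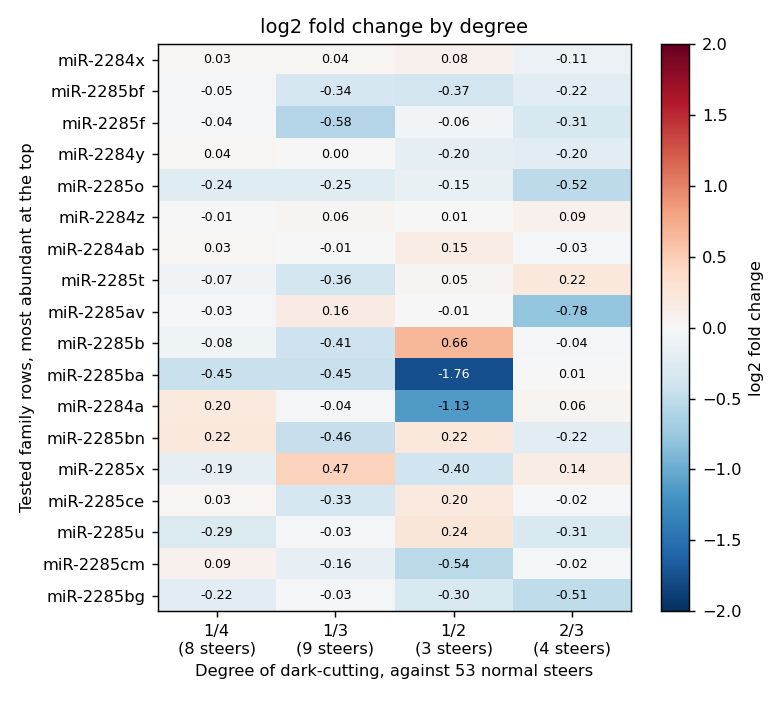
Log2 fold change against the 53 normal steers for the 18 tested members (rows, most abundant at the top) at 4 degrees (columns), blue below 0 and red above. The values range from -1.76 for miR-2285ba at degree 1/2 to 0.66 for miR-2285b at the same degree.

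Further members stood at the ends of the range by degree without an unadjusted p under 0.05. At 1/4 the lowest after miR-2285ba (-0.45 ± 0.38) were miR-2285u at -0.29 ± 0.30 and miR-2285o at -0.24 ± 0.20, and the highest were miR-2285bn at 0.22 ± 0.27, miR-2284a at 0.20 ± 0.57 and miR-2285cm at 0.09 ± 0.38. At 1/3 the ends were miR-2285bn at -0.46 ± 0.27 and miR-2285x at 0.47 ± 0.29. At 1/2 they were miR-2284a at -1.13 ± 1.03, miR-2285cm at -0.54 ± 0.61, miR-2285u at 0.24 ± 0.41 and miR-2285b at 0.66 ± 0.40. At 2/3 they were miR-2285o at -0.52 ± 0.29, miR-2285bg at -0.51 ± 0.63, miR-2285x at 0.14 ± 0.44 and miR-2285t at 0.22 ± 0.37. These values and SEs are on the log2 scale. The interval lay within a 2-fold change in 15 of 18 members at 1/4, 13 at 1/3, 10 at 1/2 and 11 at 2/3, so in the other members the interval reached past a 2-fold change in at least 1 direction.

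For a trend over all steers, normal was set to 0 and each dark-cutting steer to its fraction, with slopes in log2 units per unit of degree. The slope had an adjusted p under 0.05 in 0 of 18 members, against 0.368% of all rows, and an unadjusted p under 0.05 in 2 of 18, against 11% of all rows. The 2 members were miR-2285o, at -0.71 ± 0.29 (SE; unadjusted p 0.0146, adjusted p 0.322), and miR-2285bf, at -0.53 ± 0.27 (SE; unadjusted p 0.0495, adjusted p 0.436), from edgeR's quasi-likelihood test. With total-count scaling 0 of 18 members had an unadjusted p under 0.05, beside 40 of all 272 rows. The number was 1 of 18 with the size factors of DESeq2, beside 28 of 272, and 1 with limma, beside 35. It was also 1 with the animal number as covariate, beside 29, and without the steer of degree 3/4, beside 28. The median of miR-2285o was 7.17 CPM in normal steers, 6.51 at 1/4, 5.96 at 1/3, 7.01 at 1/2 and 6.44 at 2/3, and the steer of degree 3/4 had 4.78. Those medians did not step down from degree to degree.

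Slopes were below 0 in 14 of 18 members, with a median of -0.21 beside -0.04 over all rows tested, of which 55.5% were below 0. With total-count scaling 8 of 18 members were below 0, and the median of all rows moved up by 0.23. With the size factors of DESeq2, 12 of 18 members were below 0. The ends were miR-2285bg at -0.78 ± 0.63 and miR-2285x at 0.38 ± 0.45 (SE), and miR-2284x had 0.01 ± 0.11.

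Within the 25 dark-cutting steers 13 members were among the 251 rows tested. The slope on the degree gave 0 of 13 members with an adjusted p under 0.05 and 0 unadjusted, against 0% and 3.59% of all rows (edgeR's quasi-likelihood test). The ends were miR-2284a at -1.30 ± 1.78, miR-2285av at -1.07 ± 0.75, miR-2285t at 0.81 ± 0.78 and miR-2285ba at 1.03 ± 1.01 (SE). These SEs are wide, and the 95% interval stayed within a 2-fold change per unit of degree in 1 of 13. Degrees of 1/2 or more against 1/3 or less gave 0 of 13 adjusted and 0 unadjusted, against 0% and 2.39%, with log2 fold changes from -0.54 ± 0.63 in miR-2284a to 0.47 ± 0.33 in miR-2285b.

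Members below the low-count filter were tested in a fit of all 741 rows with a count, 137 of them members. For dark-cutting against normal, 2 members had an adjusted p under 0.05, as did 0.27% of all rows, and 16 of 137 had an unadjusted one, against 10.8% of all rows (edgeR's quasi-likelihood test). These were miR-2284f and miR-2285cz. The row of miR-2284f had 18 counts in 10 of 53 normal steers, at most 4 in a steer, and 0 in the 25 dark-cutting steers. As a share of the summed library totals it held 0.106 CPM in normal steers, and 3 counts over the dark-cutting group give a limit of 0.0362. The ratio of these was 2.94. It is no lower bound, since it leaves out the error of the normal value and the spread between steers. The adjusted p was 0.0422 in edgeR's test. The row of miR-2285cz had 6 counts in 4 normal steers and 17 counts in 9 dark-cutting steers, or 0.0354 and 0.205 CPM as such a share. Its mean TMM-scaled levels were 0.0356 and 0.173 CPM, with the same adjusted p of 0.0422.

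Both rows are at 4 counts or fewer in every steer, where the test leans on few counts. In the trend over all steers without the filter, miR-2284f was the 1 member with an adjusted p under 0.05, at 0.0360 in edgeR's test, against 0.405% of all rows. That row was at 0 in all 25 dark-cutting steers, so its slope restates the phenotype difference and cannot show a gradient with degree. Its unadjusted p in edgeR's test was 9.73e-05 in both comparisons. The authors' deposited table gave miR-2284f a log2 fold change of -1.16 ± 1.16 (SE) with a p of 0.317 and an adjusted p of 0.957. For miR-2285cz the authors' deposited table had 1.23 ± 0.96 (SE) with a p of 0.200 and an adjusted p of 0.856. Neither call of edgeR's test was thus made there.

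The authors' deposited table holds the 542 rows with at least 10 counts, 101 of them members. A fit of dark-cutting against normal steers gave its test scores, so its fold changes are dark-cutting minus normal. Among its members, the authors' deposited table had 0 of 101 with an adjusted p under 0.05, against 0% of all rows, and 7 (6.93%) with an unadjusted one, against 7.75% of all rows. Log2 fold changes of the authors' deposited table were below 0 in 71 of the 101 members and in 304 of all 542 rows (56.1%). In the authors' deposited table the 2 smallest p-values in the family belonged to miR-2285e, at 0.68 ± 0.23 (SE; p 0.00363, adjusted p 0.286), and miR-2285at, at 0.82 ± 0.29 (SE; p 0.00439). Both were higher in dark-cutting steers.

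Both are rare rows below the main filter. The row of miR-2285e had 139 counts in normal and 118 in dark-cutting steers, or 0.821 and 1.42 CPM as a share of the summed library totals. Its mean TMM-scaled levels were 0.835 and 1.33 CPM, and 17 of 25 dark-cutting steers were above the normal median. The row of miR-2285at had 93 and 88 counts, or 0.549 and 1.06 CPM as such a share. Its mean TMM-scaled levels were 0.556 and 0.970 CPM. The highest counts of miR-2285e and miR-2285at, 16 and 14, were in the same steer of degree 1/2. Whether these rows share reads was not tested. In the authors' deposited table the other 5 were lower in dark-cutting steers. They were miR-2285r at -1.004 ± 0.43, miR-2285aa at -1.15 ± 0.49, miR-2284k at -0.90 ± 0.41, miR-2285q at -0.60 ± 0.28 and miR-2285o at -0.29 ± 0.13 (SE). Of these, miR-2285r, miR-2285aa, miR-2284k and miR-2285q are also rare rows below the main filter. Their mean normalized signals there were 1.56, 1.32, 1.44 and 3.66, beside 3.14 for miR-2285e and 2.18 for miR-2285at. No adjusted p of the authors' deposited table in the family was under the threshold.

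The rows from miR-2286 to miR-2489, the block of cattle-named microRNAs next to the family, served as a comparison. Of these 241 rows 107 had a count (44.4%), against 92.6% of the family, and 48 had at least 10 counts. They held 25325 counts, or 0.0100% of all counts. In dark-cutting against normal steers 4 were tested, 1 had an unadjusted p under 0.05 and 0 an adjusted one in edgeR's test. The difference in detection between the family and these rows was not tested.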

How the data were processed

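Per the labels' protocols, a NEXTflex Small RNA-Seq kit was used for the libraries. Quality control and trimming tools were FastQC and Trimmomatic 0.32, and the tests used DESeq2 1.34.0, per the submitters' processing notes. The sources used here do not give the aligner, counting tool, microRNA reference or genome build, and no positions or sequences are printed. The deposited matrix holds unnormalized whole-number counts per row and steer. The authors' deposited table gives a mean normalized signal, a log2 fold change with SE, a test score, and p-values with adjusted p-values. Refitting the phenotype contrast with DESeq2 matched those scores within 7.55e-08.

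Groups came from the phenotype label. Titles match the 78 columns, and 0 columns belong to other samples. Steers are separate animals, replicate numbers are only names, and no library was a near copy of another: over 3003 pairs, chi-square divided by its degrees of freedom was at least 9.43.

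The whole table was fitted in edgeR 4.0.16 (R 4.3.3; quasi-likelihood test, robust, TMM, Benjamini-Hochberg, threshold 0.05). The low-count filter was filterByExpr with a minimum count of 10 for the phenotype. For degrees and trends, rows needed the CPM that 10 counts make at the median library in 8 or more libraries, and 15 counts in total. Alternatives were other scalings, DESeq2 1.42.0, limma 3.58.1, no filter, identical rows kept as 1, the animal number (from 600 or not) as covariate, and leaving steers out. Correlations used log2 (TMM-scaled CPM + 0.5). The test was checked on simulated counts. The CV beyond counting error is the square root of the variance minus the mean, over the squared mean, of TMM-scaled counts at the median library size.

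Named rows were the 12 highest by mean CPM, members with an unadjusted p under 0.05, the 3 highest and 3 lowest fold changes per comparison, the 5 most variable, and identical rows. Outside this rule, miR-2284f, miR-2285cz, miR-2285ce, members with no count or a labelled arm, the rows named from the authors' table, and the pairs correlated were chosen after their values were seen. The members and lists were chosen with earlier results of these data known.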

Additional observations from a re-analysis of the deposited data

Results flagged for a closer look

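In groups of 4 to 10 steers, 19 values were looked at for a single steer that stands far from its group, which made 57 groups, and 4 were found. Chance gives about 1 in 20 groups. The level of miR-2285t was 11.5 CPM in 1 steer of degree 1/4 (replicate 3), with the next steer at 4.89. The level of miR-2285t was 8.61 CPM in 1 steer of degree 1/3 (replicate 5), with the next at 4.03. The level of miR-2285bg was 6.39 CPM in 1 steer of degree 1/3 (replicate 3), with the next at 2.04. The row of miR-2285ce had 0 counts in 1 steer of degree 1/4 (replicate 7), with the next at 1.88 CPM.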

How the results depend on the processing

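The number of members past the adjusted threshold was 0 in each comparison and alternative run on filtered rows, also with each steer of degree 1/2 or 2/3 left out in turn. Without the low-count filter it became 2 for dark-cutting against normal and 1 for the trend over all steers, since more rows of few counts were tested. The member of the trend was miR-2284f, which has no count in any dark-cutting steer, so it repeats the phenotype difference. Of 128 recomputed values of members, 122 kept their direction and side of the threshold, with adjusted p from 0.287 to 0.999. The other 6 reversed for dark-cutting minus normal. With total count alone the log2 fold change was 0.10 in miR-2284y, 0.042 in miR-2285t, 0.094 in miR-2285av, 0.038 in miR-2285b and 0.10 in miR-2284a, and with limma it was 0.00078 in miR-2284a. The cause was not tested beyond the shift of all rows given above. The family's share was 1641 CPM of the counts that are not miR-1, by the smaller denominator. Leaving out a steer, the log2 fold change of miR-2285ba at degree 1/2 ran from -2.07 to -1.31, and that of miR-2285av at 2/3 from -0.83 to -0.58. No paired analysis was possible because replicate numbers were given in accession order and pair no steers. Depth limits most members: below 1 CPM a library of median size holds about 3 counts or fewer.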

Other observations

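Chosen after the values were seen, miR-374a, a row outside the family, followed miR-2285bf over the 78 steers at r = 0.83 and rho = 0.86, higher than the r of 0.57 between miR-2285bf and miR-2285f. The r was 0.85 in normal and 0.79 in dark-cutting steers, 0.88 and 0.81 in the lower and higher animal numbers, and 0.84 without the 2 steers farthest from the median. The 3p arm of let-7a went the other way, with r = -0.38 and rho = -0.44. It was -0.69 in the 26 lower and -0.23 in the 52 higher animal numbers.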
